A study of Mus musculus with 12 samples.

Results

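The 10 genes described here mark the cells of the vessel wall: 6 contractile genes of smooth muscle (Acta2, Myh11, Tagln, Cnn1, Mylk and Lmod1) and 4 genes of pericytes (Pdgfrb, Rgs5, Kcnj8 and Abcc9). They were followed by gene name through all of their array probes, which gave 21 of the 41174 gene probes, and 10 of the 19476 gene symbols on the array. RNA came from the quadriceps of C57BL/6J male mice aged 13 weeks, with 1 array for each of 12 mice. In the exercised group, 6 mice had trained on a motorized treadmill for 4 weeks, and in the sedentary group 6 mice had not. The exercised muscle was collected 3 hours after the last bout, so a lasting effect of training and an effect of that bout cannot be told apart. The labels name no genetic change in either group. Mice are named by the set and animal number of their labels, so that s2m4 is animal 4 of set 2. What the sets are is not stated.

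Smooth muscle cells in arteries and arterioles contract when the myosin light chain kinase phosphorylates smooth muscle myosin, which then pulls on smooth muscle actin filaments. Pericytes sit on capillaries, depend on PDGF-B from the endothelium for their recruitment, and carry ATP-sensitive potassium channels that relax the vessel when energy runs low. Both cell types make up a small part of a muscle that consists mainly of fibres.

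The training difference was not the same for the different genes of the vessel wall. Of the 6 contractile genes, calponin (Cnn1), smooth muscle myosin heavy chain (Myh11) and myosin light chain kinase (Mylk) rose, and Acta2 rose by the probe with most spots but not by its brightest probe. Of the 4 pericyte genes, Kcnj8, the pore of the vascular ATP-sensitive potassium channel, fell, while the others did not pass the test. Levels are log2 intensities relative to the 75th percentile of the same array, and a gene was called at a limma adjusted p below 0.05 over all genes. Of all 16452 genes and unnamed probes tested, 1.82% were called higher and 1.85% lower in exercised mice. Of the members, 3 of 10 were called higher and 1 of 10 lower. The members were chosen with earlier results of these data known, so these counts only describe them. With each gene, Acta2 included, by its brightest probe, the median log2 difference was 0.38 over the contractile genes and -0.21 over the pericyte genes, against -0.03 over all genes tested. The calls differed in how well they held. Those of Cnn1 and Kcnj8 held in all 12 fits with a mouse left out, and with array slide as a block. Myh11 kept its call in 2 of these 12 fits, Mylk by its brightest probe in 1, and Acta2 by its probe with most spots in 6. With slide as a block, Myh11 and Acta2 by that probe lost their calls. In whole muscle, fewer cells of a type and less RNA per cell cannot be told apart.

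**Figure D1:**
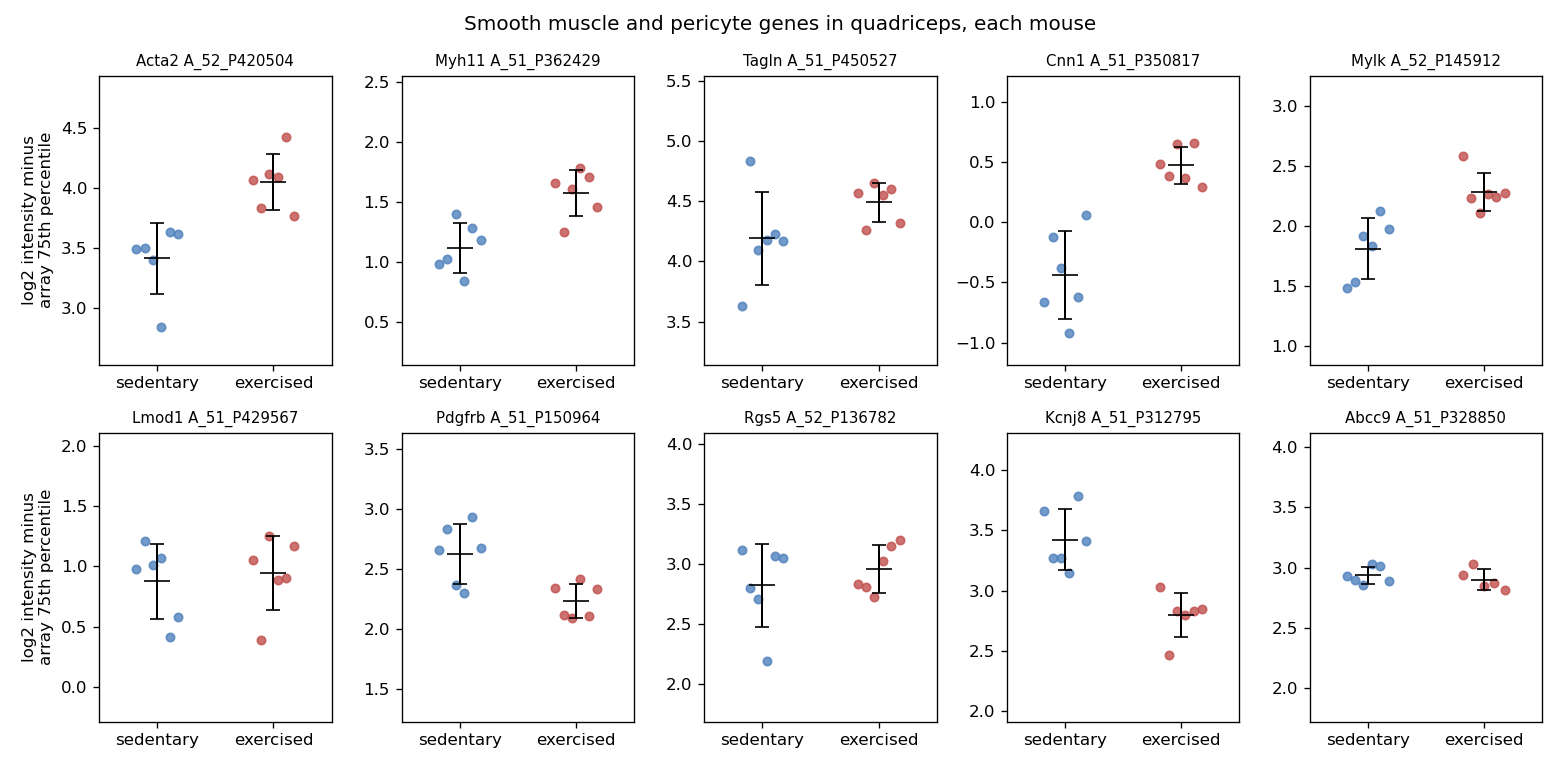
Level of each gene in each mouse, as log2 intensity minus the array's 75th percentile, with the mean and SD of 6 mice per group (5 exercised mice for Abcc9). Every panel spans the same number of log2 units; Acta2 is shown by its 10-spot probe, chosen after its values were seen, and the others by their brightest probe. Cnn1 and Acta2 lie higher and Kcnj8 lower in every exercised mouse than in any sedentary mouse.

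The fit over all 22919 tested probes took every probe of a gene by itself. Of the 21 member probes 19 were tested, and the other 2, A_52_P644232 for Acta2 and A_51_P272407 for Mylk, were well above background on none of the 12 arrays. In this fit 1.81% of all probes were called higher and 1.51% lower. Of the 19 member probes, 6 were called higher and 2 lower. Acta2, Mylk and Kcnj8 were each called by 2 probes. Probes of the same gene were read in the same mice, so counts of probes are not counts of separate genes. The exercised and sedentary ranges did not overlap for 6 member probes, 4 higher and 2 lower, against 2.89% of all probes in either direction.

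**Figure D2:**
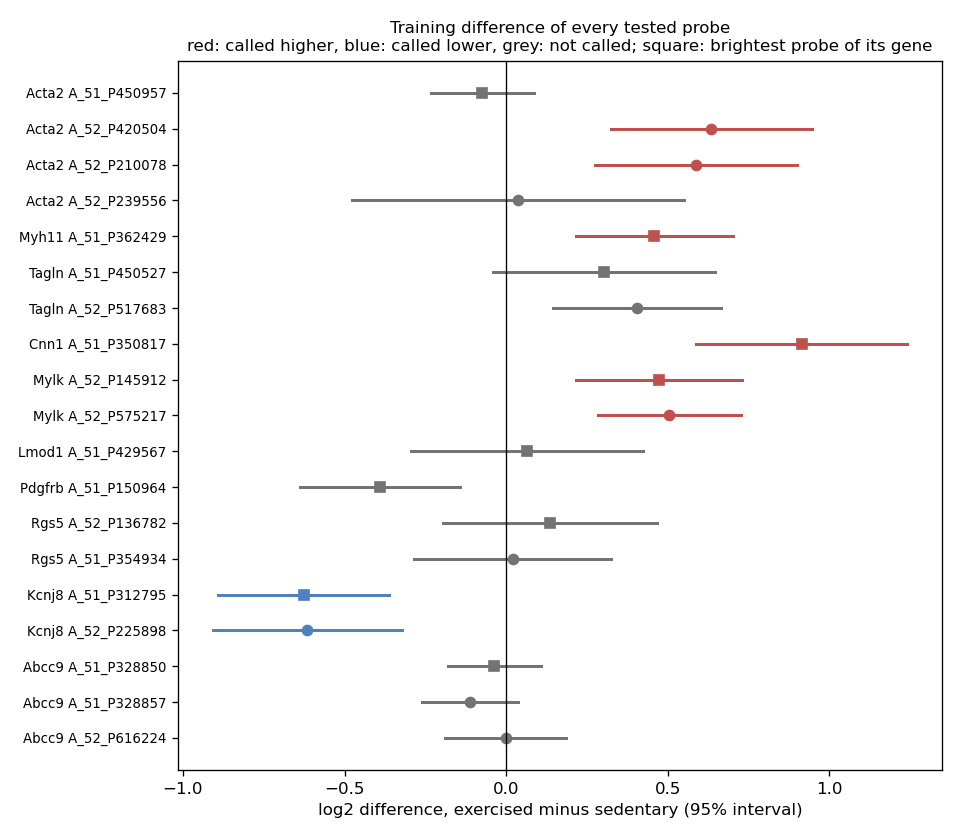
Difference of the mean log2 level, exercised minus sedentary, with its 95% interval from limma, for the 19 tested probes. Squares are the brightest probe of a gene; red and blue probes passed the adjusted p of 0.05 over all probes. Both Mylk probes and both Kcnj8 probes fall on the same side, whereas the Acta2 probes divide.

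Acta2 encodes the actin of smooth muscle filaments, and its probes gave different answers. The brightest of them, A_51_P450957, crosses at least 1 intron, since its 60 bases span 3255 bases of mm9 (chr19:34322995-34326249, minus strand). Its place among the exons was not looked up in an annotation, and 2 of its 3 reading frames on the printed strand hold no stop codon. It is printed because the disagreement turns on it.

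Acta2 A_51_P450957: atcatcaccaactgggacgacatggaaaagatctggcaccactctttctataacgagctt

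Through this probe Acta2 stood between 9.36 and 9.60 (median 9.41) in exercised mice and between 9.36 and 9.65 (median 9.57) in sedentary mice. The groups overlapped over nearly their whole range. The log2 difference was -0.07 (95% interval -0.23 to 0.08, limma adjusted p = 0.694).

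The probe A_52_P420504 (chr19:34316060-34316119, mm9, minus strand) was printed on the array in 10 spots, whose log2 values had an SD of 0.0265 to 0.124 within a mouse. It read 3.77, 4.08 and 4.42 (lowest, median and highest) in exercised mice and 2.84, 3.49 and 3.63 in sedentary mice. Every exercised mouse was above every sedentary mouse, and the lowest of all was sedentary s2m2. Acta2 by this probe was 1.55-fold higher in exercised mice (95% interval 1.25 to 1.93, limma adjusted p over probes = 0.0299). The probe A_52_P210078 (chr19:34315697-34315756) read -0.75, -0.45 and -0.06 in exercised mice and -1.38, -1.09 and -0.61 in sedentary mice. Here the groups overlapped, and the mean was 1.50-fold higher in exercised mice (1.21 to 1.87, adjusted p over probes = 0.0458). The 10-spot call was lost when exercised s1m1, s2m1, s2m3 or s2m4, or sedentary s1m5 or s1m6, was left out (adjusted p up to 0.0644). That of A_52_P210078 held only without exercised s2m5, sedentary s1m5 or sedentary s2m5 (adjusted p up to 0.0989 without the others). The dim probe A_52_P239556 differed by 0.04 on the log2 scale (-0.48 to 0.55, adjusted p = 0.967).

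The 10-spot probe thus parted from the brightest one. Its log2 value minus that of the brightest probe averaged -5.41 ± 0.292 in the exercised group and -6.12 ± 0.363 in the sedentary group (SD, n = 6 each), a difference of 0.71 (two-sided exact permutation test over 924 assignments, p = 0.00216, the smallest they can give, and 0.0054 after adjustment over 5 contrasts chosen after their values were seen). Skeletal actin (Acta1), the main actin of muscle fibres, was measured by 1 probe and differed by -0.13 (-0.28 to 0.02, limma adjusted p = 0.394). After removal of the group means, its level over the 12 mice correlated with the brightest Acta2 probe at Pearson r = 0.654 (permutation p = 0.0443, adjusted over 3 relations 0.133) and Spearman rho = 0.615 (p = 0.0597, adjusted 0.115). Without the 2 mice farthest from the median, r was 0.694, and with slide means removed it was 0.608 (permutation p = 0.0822). With the 10-spot probe, r was -0.534 (p = 0.0905, adjusted 0.136) and rho -0.497 (p = 0.129, adjusted 0.129), and r was -0.496 without the 2 mice farthest from the median. With slide means removed, the r of Acta1 with the 10-spot probe was -0.506 (permutation p = 0.163). The 10-spot and brightest Acta2 probes correlated at r = -0.449 (permutation p = 0.172, adjusted 0.172) and rho = -0.545 (p = 0.0768, adjusted 0.115). None of these 3 relations passed the adjustment. Whether skeletal actin RNA binds the brightest Acta2 probe was not tested.

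**Figure D3:**
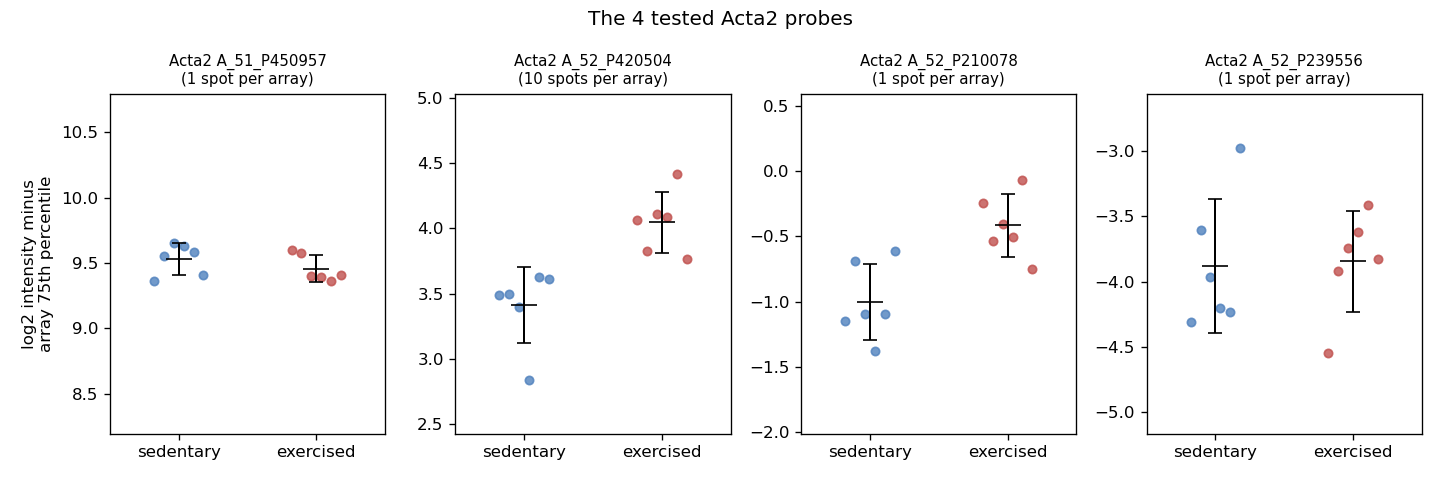
Level of the 4 tested Acta2 probes in each mouse, as log2 intensity minus the array's 75th percentile, with the mean and SD of 6 mice per group; every panel spans the same number of log2 units. The groups overlap for the brightest probe (difference -0.07), and the probes A_52_P420504 and A_52_P210078 are higher in exercised mice (0.64 and 0.59).

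The Acta2 promoter is the textbook site of CArG boxes, the element bound by serum response factor and its partner myocardin. It is printed with the CArG-like stretches in capitals, as the 250 bases before the start site on the minus strand (chr19:34255374-34255623, GRCm38.p6, RefSeq).

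Acta2 promoter: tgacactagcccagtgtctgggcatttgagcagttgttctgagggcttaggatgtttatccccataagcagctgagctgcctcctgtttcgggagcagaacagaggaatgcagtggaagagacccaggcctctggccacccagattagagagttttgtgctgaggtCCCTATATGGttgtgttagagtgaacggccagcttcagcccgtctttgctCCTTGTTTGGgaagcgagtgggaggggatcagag

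The search took CC, then 6 letters of A or T of which at most 1 could be another letter, then GG, a pattern that reads the same on both strands. The matches start at -84 and at -34 from the start site. Such a match is in 8.59% of 32851 mouse promoters of this length, and the strict form with no other letter is in 1.47%. Of the 7 members whose promoters were searched (Acta2, Cnn1, Mylk, Lmod1, Rgs5, Kcnj8 and Abcc9), 1 had a match, Acta2, and 0 had the strict form. Myh11, Tagln and Pdgfrb were not searched. The matches are a description of these letters.

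Cnn1, or calponin, binds actin and restrains the myosin motor in smooth muscle. It read 0.30, 0.44 and 0.66 (lowest, median and highest) in exercised mice and -0.92, -0.50 and 0.06 in sedentary mice (probe A_51_P350817, chr9:21913058-21913117, mm9). No exercised mouse was as low as the highest sedentary mouse, s2m5. Cnn1 was 1.88-fold higher in exercised mice (95% interval 1.50 to 2.36, limma adjusted p = 0.00544), the highest fold of the 10 genes.

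Myh11, the motor protein itself, read 1.25, 1.63 and 1.78 in exercised mice and 0.84, 1.11 and 1.40 in sedentary mice. The groups overlapped through exercised s1m5, the lowest of its group, and sedentary s1m6, the highest. Myh11 was 1.37-fold higher (1.16 to 1.62, adjusted p = 0.0420). The call was close to the threshold: it held without exercised s1m5 or sedentary s1m6, and was lost when any of the other 10 mice was left out, with adjusted p up to 0.0849.

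Mylk encodes the kinase that starts contraction. By its brightest probe it read 2.11, 2.26 and 2.59 in exercised mice and 1.48, 1.88 and 2.13 in sedentary mice, and only exercised s2m1 lay below a sedentary mouse, s2m4. By the probe A_52_P575217 it read 1.71, 1.87 and 2.05 against 0.95, 1.42 and 1.57, with no overlap. The difference was 1.39-fold by the brightest probe (1.16 to 1.66, adjusted p = 0.0470) and 1.42-fold by the other (1.22 to 1.65, adjusted p over probes = 0.0170). The brightest probe kept its call only without sedentary s2m4 and lost it when any other mouse was left out (adjusted p up to 0.0883), whereas A_52_P575217 kept its call without any 1 of the 12 mice.

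Tagln, the actin-bundling transgelin, and Lmod1, which nucleates actin filaments, did not pass the test. Tagln differed by 0.30 on the log2 scale (-0.04 to 0.65, adjusted p = 0.384) by its brightest probe, where sedentary s1m5 was the highest and sedentary s1m1 the lowest of all 12 mice. By its other probe, A_52_P517683, the difference was 0.41 (0.14 to 0.67, adjusted p over probes = 0.0960), and the groups did not overlap (0.85 to 1.42 against 0.18 to 0.78). Lmod1 read 0.39 to 1.26 in exercised and 0.41 to 1.21 in sedentary mice, a difference of 0.07 (-0.30 to 0.43, adjusted p = 0.897). Cnn1 minus Lmod1, read within each mouse, averaged -0.47 ± 0.304 after training and -1.32 ± 0.508 without it (SD, n = 6 each; exact permutation p = 0.0108, adjusted 0.0108). This pair was chosen for its difference after the values were seen, so the p describes it and supports nothing further.

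Kcnj8 encodes Kir6.1, the pore of the ATP-sensitive potassium channel of vessels, and Abcc9 encodes SUR2, the regulatory subunit that assembles with it. Kcnj8 read 2.46, 2.83 and 3.03 in exercised mice and 3.14, 3.34 and 3.79 in sedentary mice (A_51_P312795, chr6:142514004-142514063, mm9). Each exercised mouse was below each sedentary mouse. The level was 1.54-fold lower in exercised mice (95% interval 1.28 to 1.85, adjusted p = 0.0134). Its other probe, A_52_P225898, read -0.95, -0.51 and -0.31 against -0.28, 0.11 and 0.36, again without overlap, and was 1.53-fold lower (1.25 to 1.88, adjusted p over probes = 0.0263). That second call was lost when exercised s2m1 or s2m3, or sedentary s1m1, s1m5, s2m4 or s2m5, was left out (adjusted p up to 0.0612).

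The partner subunit did not pass the test by any probe. The 3 Abcc9 probes differed by -0.04 (-0.18 to 0.10, adjusted p = 0.843), -0.11 (-0.26 to 0.04, adjusted p over probes = 0.486) and -0.0013 (-0.19 to 0.19, 0.997) on the log2 scale. The brightest one has no value for exercised s2m4, where its spot carried an outlier mark. With that spot kept its difference turned to 0.52 (adjusted p = 0.682), and in the deposited value table, which holds it, to 0.52 as well (adjusted p = 0.682); the other 2 probes kept their sign and stayed uncalled. In contrasts also chosen after their values were seen, Kcnj8 minus Abcc9 was lower in exercised mice by 0.51 against the probe A_51_P328857 (1.57 ± 0.273 and 2.08 ± 0.259, SD, n = 6; exact permutation p = 0.00649, adjusted 0.0108) and by 0.62 against A_52_P616224 (p = 0.00866, adjusted 0.0108). Of the 4 channel subunits measured, 1 was called, Kcnj8. The other subunits measured, Kcnj11 and Abcc8, differed by -0.18 (adjusted p = 0.478) and 0.35 (0.632). Which cells of the muscle gave the Abcc9 signal was not tested.

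Pdgfrb encodes the receptor by which pericytes answer PDGF-B. It read 2.09, 2.23 and 2.41 in exercised mice and 2.30, 2.67 and 2.94 in sedentary mice, and the groups overlapped. The difference of -0.39 (-0.64 to -0.14, adjusted p = 0.0851) did not pass the test. It passed without sedentary s2m2, the lowest sedentary mouse, at -0.46 and an adjusted p of 0.0473. Rgs5, a pericyte regulator of G protein signalling, read 2.72 to 3.20 in exercised and 2.19 to 3.11 in sedentary mice, and its 2 probes differed by 0.14 (-0.20 to 0.47, adjusted p = 0.735) and 0.02 (-0.28 to 0.33, 0.969). Kcnj8 minus Rgs5, a pair chosen in the same way, was -0.16 ± 0.244 in exercised and 0.60 ± 0.209 in sedentary mice (SD, n = 6; exact permutation p = 0.00216, adjusted 0.0054). The adjustment over 5 contrasts does not cover the choice of pairs by their values. The p of each of the 5 therefore describes the pair and supports nothing further.

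The arrays lay on 3 slides with unequal numbers of each group: slide 1 held 1 exercised and 3 sedentary mice, slide 2 held 3 exercised and 1 sedentary, and slide 3 held 2 of each. With slide as a block, 3 member genes were called, namely Cnn1 (adjusted p = 0.0247), Mylk (0.0497) and Kcnj8 (0.0289). The block ended the calls of Myh11 (0.43, adjusted p = 0.134), of Acta2 by its 10-spot probe (0.51, adjusted p over probes = 0.113) and of Acta2 by A_52_P210078 (0.49, 0.160). Over all genes it left 350 calls of 604. Within slides 1, 2 and 3 the log2 difference was 0.71, 0.68 and 1.08 for Cnn1, 0.32, 0.67 and 0.32 for Myh11, and 0.36, 0.67 and 0.60 for Mylk. It was 0.48, 0.71 and 0.39 for Acta2 by its 10-spot probe, and -0.43, -0.45 and -0.98 for Kcnj8. With 4 arrays a slide, no member was called within a slide. Tagln by its brightest probe differed by -0.23 on slide 2, Lmod1 by -0.20 there, and Rgs5 by -0.27 on slide 3, each against the sign over all mice.

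**Figure D4:**
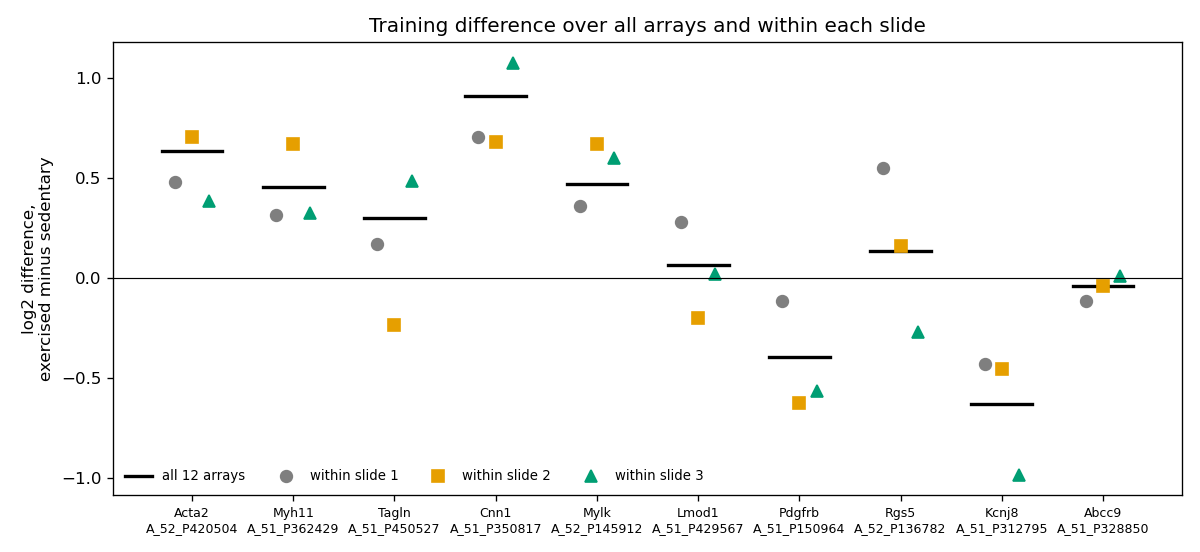
Log2 difference, exercised minus sedentary, over all 12 arrays (bars) and within each slide (symbols), for the probes of the plot of levels by mouse. Cnn1, Myh11, Mylk, Acta2 by its 10-spot probe, Pdgfrb and Kcnj8 have the same sign on all 3 slides, and Tagln, Lmod1, Rgs5 and Abcc9 do not.

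Other genes of the contractile apparatus mostly did not pass the test. Of 19 further smooth muscle contractile genes measured, 1 was called, Csrp1, a LIM protein of smooth muscle, at 1.38-fold higher (95% interval 1.23 to 1.55, adjusted p = 0.00511). Its groups did not overlap, and it passed with slide as a block (limma adjusted p = 0.0284). Of the 19 genes, 13 lay above 0 and 6 below, with a median of 0.12 and 4 at an unadjusted p below 0.05. Which cells of the muscle gave the signal of these genes was not tested. Among 17 relatives of the contractile members, Cnn3, a calponin found outside smooth muscle, rose 1.31-fold (1.14 to 1.50, adjusted p = 0.0372), and the other 16 did not pass; with slide as a block Cnn3 did not pass either (adjusted p = 0.0854). Of 13 myosin light chain kinase and phosphatase genes, 1 was called, Mylk; the skeletal muscle kinase Mylk2 differed by -0.21 (adjusted p = 0.589).

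Among the regulators of the smooth muscle programme, 1 of 16 measured genes was called. Klf4, a zinc finger factor known to repress contractile genes in cultured smooth muscle, was 1.83-fold higher in exercised mice (1.37 to 2.45, adjusted p = 0.0267), with levels of 3.91 to 4.73 against 3.20 to 4.34. Myocd, the myocardin gene, was not well above background on any array.

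Of 19 further pericyte and mural cell genes, 1 was called higher and 2 lower, against 1.82% and 1.85% of all genes tested. Of the 19, 8 lay above 0 and 11 below, with a median of -0.08 and 9 at an unadjusted p below 0.05 by limma. Ednrb, an endothelin receptor, rose 1.31-fold (1.15 to 1.50, adjusted p = 0.0267; 0.0650 with slide as a block). Gja4, a vascular connexin, fell 1.54-fold (1.23 to 1.91, adjusted p = 0.0348), and Heyl, a Notch target of mural cells, fell 1.60-fold (1.26 to 2.03, adjusted p = 0.0341). None of the 10 PDGF-B signalling genes was called by limma (1 at an unadjusted p below 0.05), and none of the 7 measured RGS relatives (2 at an unadjusted p below 0.05).

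Markers of other cell types were read beside these genes. The share of all genes at an unadjusted p below 0.05 in the training comparison is not given here. The counts at that threshold, in these and the earlier lists, therefore cannot be judged against it. All 10 skeletal muscle markers were measured, with 0 called (1 at an unadjusted p below 0.05). Of 13 endothelial markers, 9 lay below 0 and 4 above, with a median of -0.26 and 8 at an unadjusted p below 0.05. Flt1 was called higher (1.33-fold) and Kdr (1.71-fold), Cldn5 (1.82-fold) and Egfl7 (1.49-fold) lower. With slide as a block Kdr alone of these passed (adjusted p = 0.0178). The markers' summed level, in units of the 75th percentile and weighted to the brightest markers, was 70.1 to 83.5 in exercised and 68.7 to 86.8 in sedentary mice. All 10 tendon markers lay above 0, with a median of 0.92 and none called by limma (9 at an unadjusted p below 0.05), and their summed level was 66.2 to 170 in exercised against 29.1 to 86.4 in sedentary mice. All 13 endothelial and all 10 tendon markers passed the background filter. Of 4 measured brown adipocyte markers 3 lay above 0, with a median of 0.98, 0 called by limma and 2 at an unadjusted p below 0.05, Ucp1 (4.35, 95% interval 0.88 to 7.82, adjusted p = 0.180) and Cidea (1.79, 0.14 to 3.45, adjusted p = 0.258). Their summed level was 172 to 300 in exercised and 200 to 277 in sedentary mice, and Elovl3 was not well above background on any array. That sum is weighted to Cox8b, the marker below 0, with mean log2 levels of 7.74 in exercised and 7.84 in sedentary mice. Cidea averaged 3.96 and 2.17, so the sum says little about Cidea or Ucp1. Of 7 Schwann cell markers 6 lay above 0, with a median of 0.16, 0 called and 3 at an unadjusted p below 0.05, and the sums were 16.3 to 23.3 and 16.7 to 18.6. No marker was called among 10 of fibroblasts (median 0.11, 1 at an unadjusted p below 0.05), 6 of white adipocytes (0.39), 8 of macrophages (0.05), 4 of erythrocytes (0.34) and 7 of slow fibres (0.45), with 0 at an unadjusted p below 0.05 in the last 4 lists. The part of these markers in the differences of the vessel wall genes was not tested.

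Across mice of a group, the 10 genes did not vary together closely enough to pass adjustment. Of the 45 pairs, with Acta2 by its 10-spot probe and group means removed, 26 had a positive Pearson r, and r ranged from -0.563 to 0.67 over the 12 mice. The missing Abcc9 value of exercised s2m4 was set to its group mean, and the lowest r, of Lmod1 with Abcc9, includes it. By permutation 4 pairs had an unadjusted p below 0.05 and 0 passed after adjustment. The highest r was that of Acta2 with Rgs5 (r = 0.67, permutation p = 0.049, adjusted 0.455; Spearman rho = 0.469, p = 0.14, adjusted 0.757), which was 0.653 without the 2 mice farthest from the median. For each member the genes with the most similar deviations were picked by the highest r among 13305 genes with a symbol. Over 12 mice such a choice alone favours high r, and these values were not tested. The genes whose deviations were most like those of a member were Mgp (Pearson r = 0.96), Fzd6 (0.96) and Tbxa2r (0.95) for Rgs5. For Kcnj8 they were Bloc1s4 (0.86), Dnaaf6b (0.86) and Il20rb (0.86), for Cnn1 Mtx2 (0.87), Zfp595 (0.83) and Adam28 (0.81), and for Mylk Spock2 (0.89), Usp21 (0.89) and Traf7 (0.88). For Acta2 by its 10-spot probe they were Dcaf12l1 (0.91), Fam102a (0.90) and Lrrc15 (0.89), for Myh11 Vipr1 (0.88), Axin1 (0.87) and Qrsl1 (0.84), and for Tagln Grin1 (0.89), Zfp36 (0.89) and Rusc1 (0.87). For Pdgfrb they were Cpne7 (0.94), Mpp2 (0.88) and Adamtsl5 (0.87). For Abcc9, read without exercised s2m4, they were Pik3r1 (0.90), Cdc14b (0.88) and Pnck (0.88).

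The training difference of the members did not pass a test of a difference between set 1 and set 2. By limma's interaction term 0 of the 10 members and 0 of all 16452 genes and unnamed probes were called, and the lowest adjusted p of a member was 0.550. At an unadjusted p below 0.05 there were 1441 genes in all and 2 members, Mylk (0.77 in set 1 and 0.24 in set 2) and Lmod1 (-0.35 and 0.37).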

How the data were processed

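One-colour Agilent arrays measured RNA of 12 mice. The deposited scanner files hold the linear intensity of each spot, which the authors, per the file headers, extracted with Agilent Feature Extraction 10.5.1.1 (the submitters' processing notes name 9.1), background-subtracted and detrended within each array but not scaled between arrays. The same files hold other values, the scanner software's marks of 0 or 1 for outlier, saturated and above-background spots, per the file headers. The deposited value table, also intensity, served as an alternative. Its values equalled the processed signal to within 0.1% for 100% of the 40929 probes printed once. Its column medians ran from 14.4 to 23.2, and its direction was that of the signal. Here, control and outlier-marked spots were left out, spots of a probe averaged, log2 taken and each array's 75th percentile subtracted. Probes well above background on at least 6 of 12 arrays were kept (22919), and a gene was read by its brightest probe. Well above background were 21728 to 25246 probes an array, the 75th percentile was 167 to 237 intensity units, and the number of arrays limits the precision.

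Groups were compared with limma 3.58.1 in R 4.3.3 (files were read with the data.table package, version 1.17.8) by lmFit and eBayes over all 12 arrays, with Benjamini-Hochberg adjustment over all genes or all probes. Adjusted p-values of brightest probes are from the gene fit, others from the fit over all probes. Values computed on members alone used exact permutation, and correlations 100000 permutations within groups. The fit was tested on simulated data. Probe positions come from the array's own mm9 annotation and promoters those of RefSeq (GRCm38.p6), and the builds were not mixed. The text names all members, up to 4 called genes of each wider list by smallest p, and for each member the 3 most alike genes (those of Lmod1 are not reported here); Acta1, Kcnj11, Abcc8, Mylk2, Myocd, Ucp1, Cidea and Elovl3 were added. The members and lists were chosen with earlier results of these data known. Alternatives covered scaling, background, filters, probe choice, variance model, slide, set, shared numbers and each mouse left out.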

Additional observations from a re-analysis of the deposited data

Results flagged for a closer look

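A single mouse stood apart from the rest of its group for 5 of the 37 combinations of probe and group examined, by Dixon's criterion for 6 mice, and chance gives about 1 in 20. Acta2 by its 10-spot probe was 2.84 in sedentary s2m2, below the next sedentary mouse at 3.40. Tagln by A_52_P517683 was 0.176 in the same mouse, below the next at 0.582, and 1.42 in exercised s2m4, above the next at 1.03. Mylk by its brightest probe, A_52_P145912, was 2.585 in exercised s1m1, above the next at 2.27. Mylk by A_52_P575217 was 0.9469 in sedentary s1m1, below the next at 1.39. Without sedentary s2m2 the Acta2 difference kept its call, and Myh11 and Mylk by its brightest probe lost theirs (adjusted p = 0.0843 and 0.0817).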

How the results depend on the processing

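The fits within a slide and those on the 8 arrays with shared numbers were set aside, which left 28 alternatives. Cnn1 and Kcnj8 kept their calls in 27 of these, the exception being the plain normexp correction, and in 12 of 12 fits with a mouse left out. On those 8 arrays, with or without the shared number as a block, both lost their calls. Myh11 and Mylk (brightest probe) kept theirs in 12 of 28 each, and Acta2 by its 10-spot probe in 19 of 28. Plain normexp left 0 genes, 0 probes and 0 members. On 4 of 12 arrays, 82 spots had a local background above 10 times the array's median (up to 599400, against medians of 19 to 23); with these spots limited, an alternative added after the data had been seen, 491 genes, 594 probes and 4 members were called. With no filter 317 genes, 394 probes and 2 members were called, with slide as a block 350 genes and 443 probes, and at an adjusted p below 0.10 1010 genes and 1281 probes. Median scaling, array weights and set as a block each left 2 members, with 410, 658 and 555 genes called in all against 604. The brightest Abcc9 probe differed by 0.52 with outlier marks kept and by 0.52 in the deposited table, against -0.04. Within slides 1, 2 and 3, 0, 8 and 0 genes, 0, 10 and 0 probes and 0 members were called. Leaving out a mouse gave 420 to 570 genes, 520 to 706 probes and 2 to 3 members. Animals of both groups share 4 numbers, but deviations of same-numbered mice correlated at -0.185 to 0.283, so the number is not taken as a pairing; with it as a replicate block, 29 genes, 33 probes and 0 members were called, and the same 8 arrays without it gave 130, 157 and 0. Reading Acta2 by its 10-spot probe gave 5 members. In the fits at the threshold the cause of lost calls was not tested.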
